A study of Mus musculus with 72 samples.

Results

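Anti-Müllerian hormone (Amh) and its type II receptor (Amhr2) were followed in mouse early secondary ovarian follicles cultured for 24 h with or without follicle-stimulating hormone (FSH). The members were the rows of the count table whose symbol is Amh (ENSMUSG00000035262) or Amhr2 (ENSMUSG00000023047), 2 of 56691 gene identifiers, and both passed the filter on low counts that 18727 genes passed. Amhr2 was higher with 10 ng/ml of either FSH form than in the untreated follicles, by 1.34-fold with FSH21 and 1.32-fold with FSH24, whereas no difference in Amh passed the test in any of the comparisons. Both transcripts were abundant in all 18 libraries.

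AMH is a glycoprotein of the TGF-beta family, best known for making the Müllerian ducts of male embryos regress. In the ovary it is made by the granulosa cells of growing follicles, where it holds back the recruitment of primordial follicles and lowers the response of growing follicles to FSH. The secreted precursor is cut by proprotein convertases. It binds AMHR2, a serine/threonine kinase that is its own dedicated receptor, and AMHR2 then recruits a type I receptor shared with the bone morphogenetic proteins (BMPs), which phosphorylates SMAD1, SMAD5 or SMAD9. These join SMAD4 and act on target genes such as those of the ID family. FSH acts through its own receptor on the same granulosa cells and raises cyclic AMP.

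Each of 72 deposited samples is 1 of 4 sequencing lanes of a library, and the 18 libraries fall into 6 groups of 3. FSH21 is the hypoglycosylated and FSH24 the fully glycosylated form of the hormone, and each was given at 1 or 10 ng/ml; the controls received no FSH. All follicles were kept in the same medium, α-MEM with albumin, fetuin and insulin-transferrin-selenium. The labels name no genotype, strain or age. The numbers in the sample titles set the comparisons: 1, 5 and 6 for the 1 ng/ml groups and 3 of the untreated libraries, and 2, 3 and 4 for the 10 ng/ml groups and the 3 other untreated libraries. Each dose was compared with the untreated libraries of its own numbers, so a direct comparison of the doses would also compare number sets. The replicates are called biological, but no animal, pool or culture is named for any of them, and a p-value here therefore speaks only of the spread among libraries, which may be technical in part.

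The libraries held between 17512921 and 22509689 expected counts. The expression level of a gene is given as CPM, its count scaled to 1 M (mega) of a library's total after TMM scaling, and a gene was called where its adjusted p from edgeR's quasi-likelihood test was under 0.05 (Benjamini-Hochberg over the 18727 genes). The follicle label was checked against cell-type markers. Their summed levels in the 6 untreated libraries were 6810 to 8450 CPM for 12 granulosa genes, 4210 to 5330 CPM for 12 oocyte genes, 1190 to 1740 CPM for 7 theca and steroidogenic genes, 2760 to 4330 CPM for 9 stroma genes, 66.5 to 101 CPM for 5 endothelial genes and 0.688 to 4.65 CPM for 5 immune genes. The T-cell gene Cd3e was at 0 in all 6 of them, and Ptprc, Adgre1 and Cd3e did not pass the filter. In such bulk RNA, fewer cells of a type and less RNA per cell cannot be told apart.

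Amh lies on chromosome 10 at chr10:80805243-80807648 on the plus strand of GRCm38 (GENCODE M21). It spans 2406 bases with 5 exons and 1 annotated transcript, and its exons cover 1670 bases. Sf3a2, a splicing factor gene on the same strand, ends 318 bases before it, and Jsrp1 on the minus strand begins 847 bases after it. Amhr2 lies at chr15:102445367-102454633, also on the plus strand. It spans 9267 bases with 5 annotated transcripts of up to 11 exons, which cover 2005 bases, and the values are sums over transcripts. Its neighbours are Sp1, a transcription factor gene that ends 8962 bases before it, and the non-coding Gm26518 on the minus strand, 892 bases after it and not analysed here. No annotated gene overlaps Amh or Amhr2, so the strand setting of the counting, which is not given in the sources used here, has no known partner gene to mix with them.

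The 250 bases before the start of Amhr2 (RefSeq, GRCm38.p6, chr15:102445117-102445366, plus strand) are shown because Amhr2 was the member that changed and because NR5A1, a nuclear receptor whose transcript is described further on, recognises the word in capitals, AAGGTCA:
Amhr2: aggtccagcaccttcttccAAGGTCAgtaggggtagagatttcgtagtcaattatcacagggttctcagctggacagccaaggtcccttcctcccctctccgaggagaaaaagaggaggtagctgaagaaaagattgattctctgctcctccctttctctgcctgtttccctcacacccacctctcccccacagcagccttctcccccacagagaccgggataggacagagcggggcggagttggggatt
The word begins at position -231, with -1 the base just before the start, and occurs once in this window. On either strand, 4.08% of the 32851 promoter windows of this length in the RefSeq table hold it. No match was found in the Amhr2 window for AGATAA, a word that factors of the GATA family bind and 9.99% of windows hold. AACAAT, a word of SOX factors (9.42%), was also absent. GTCTAGAC for paired SMAD boxes (0.167%), TGACGTCA for the cyclic AMP response element (1.55%) and TATAAA for the box near many start sites (12.4%) were not found either, so no match overlapped another. A match describes letters and is not a measured binding site. Each family was searched with a single fixed word. Other words that its factors can bind were not looked for, so the window may still hold such words.

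Over the 18 libraries Amh stood at 866 ± 135 CPM (SD, n = 18), the 67th highest mean of the genes tested and 0.0864% of all counts. Its level ran from 601 to 1040 CPM, a 1.73-fold span, and 13503 to 22641 counts lay behind each value. Amhr2 stood at 304 ± 45.3 CPM (SD, n = 18), rank 472 and 0.0303% of counts. It ran from 231 to 381 CPM, a 1.65-fold span, on 5040 to 7814 counts. Per kilobase of exon the hormone transcript was the higher one, at 519 ± 80.8 against 151 ± 22.6 CPM per kb (SD, n = 18). Counting error is small at this depth. The spread came from the libraries, with a biological coefficient of variation of 0.154 for Amh and 0.105 for Amhr2.

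The levels of Amh, the ligand, overlapped between untreated and treated libraries at both doses. In the untreated libraries numbered 1, 5 and 6 its level was 789.7, 906.7 and 683.3 CPM. In the libraries of the same numbers it was 994.1, 996.9 and 734.6 CPM with FSH21 at 1 ng/ml, and 805.8, 948.7 and 600.7 CPM with FSH24 at 1 ng/ml. The ranges of all 3 groups overlapped, and library 6 was the lowest in each. The untreated libraries numbered 2, 3 and 4 read 1023, 658.7 and 801.5 CPM. With 10 ng/ml they read 960.7, 1039 and 951 CPM for FSH21 and 897.4, 988.4 and 809 CPM for FSH24. Here too the groups overlapped, since untreated library 2 was higher than 5 of the 6 treated libraries.

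The group means of Amh ran in the order FSH21 at 10 ng/ml (984 ± 48.3 CPM), FSH21 at 1 ng/ml (909 ± 151), FSH24 at 10 ng/ml (898 ± 89.7), untreated 2, 3 and 4 (828 ± 183), untreated 1, 5 and 6 (793 ± 112) and FSH24 at 1 ng/ml (785 ± 175; SD, n = 3 each). The ranges of all neighbours in that order overlapped. At 10 ng/ml the log2 fold change of Amh was 0.25 with FSH21 (SE 0.18, 95% interval -0.13 to 0.63, adjusted p = 0.479 by edgeR) and 0.12 with FSH24 (-0.26 to 0.50, adjusted p = 0.797). At 1 ng/ml it was 0.20 with FSH21 (-0.19 to 0.58, adjusted p = 0.925) and -0.01 with FSH24 (-0.40 to 0.37, adjusted p = 0.992). None of the 4 passed the test, and the intervals leave room for a ratio between 0.760 and 1.55.

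**Figure D1:**
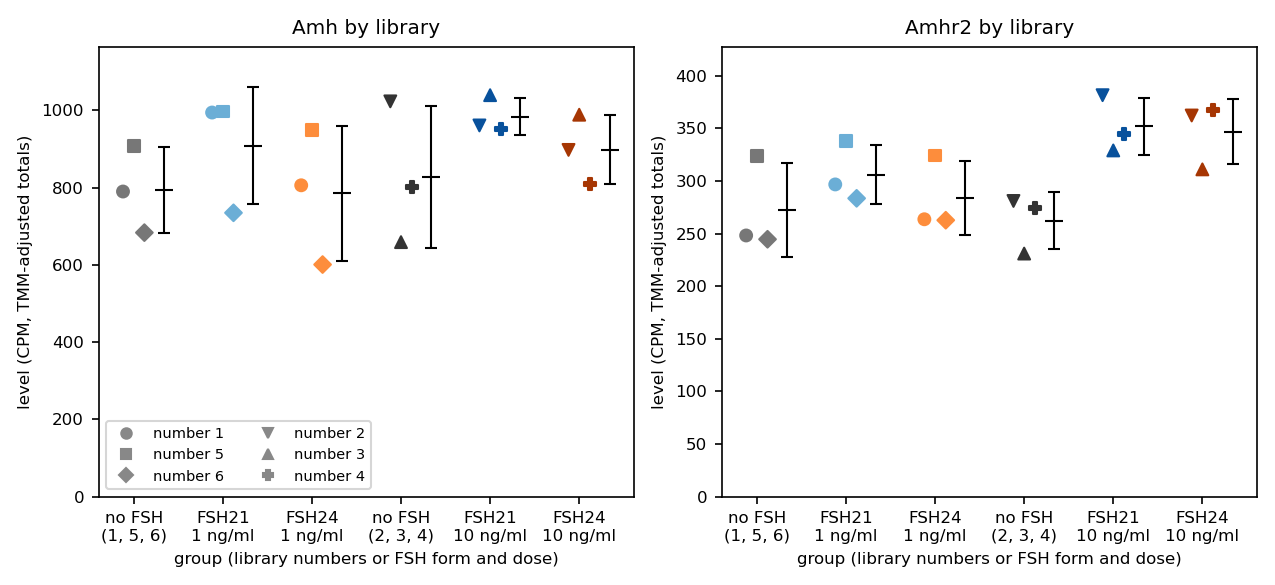
Level of Amh (left) and Amhr2 (right) in CPM on TMM-adjusted totals, by group; each point is a library, its shape the number in the title, and the bars beside the points are the group mean ± SD (n = 3). Untreated and treated libraries overlap for Amh at both doses, whereas the 6 Amhr2 values with 10 ng/ml FSH, 311 to 381 CPM, all lie above the 3 untreated values of the same numbers, 231 to 281 CPM. The share of all genes that separate in this way was not computed.

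Amhr2, the receptor, rose with 10 ng/ml of both FSH forms. The untreated libraries numbered 2, 3 and 4 read 281, 231 and 274.6 CPM. With FSH21 at 10 ng/ml the values were 381.5, 329 and 344.9 CPM, and with FSH24 at 10 ng/ml they were 362.2, 311 and 367.4 CPM. Every treated library was above every untreated one of these numbers. The share of all genes whose groups separate in this way was not computed. The log2 fold change was 0.42 with FSH21 (SE 0.12, 95% interval 0.18 to 0.67, adjusted p = 0.0274 by edgeR) and 0.40 with FSH24 (SE 0.12, 0.16 to 0.65, adjusted p = 0.0403). With the mean of both forms it was 0.41 (SE 0.10, 0.20 to 0.63, adjusted p = 0.0117), a ratio of 1.33 (1.15 to 1.55). Of all genes tested, 10.2% were called with FSH21, 8.42% with FSH24 and 13.2% with the mean of both forms, so Amhr2 was 1 of many genes called at this dose.

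In the main fit, which did not take the library number as a block, the Amhr2 calls stood close to the threshold and depended on single libraries. The FSH21 call was lost without untreated library 3 (log2 fold change 0.33, adjusted p = 0.147), untreated 4 (0.0706), treated 2 (0.14) or treated 4 (0.0643), and the FSH24 call without untreated 2 (0.0621), 3 (0.187) or 4 (0.101) or treated 2 (0.158) or 4 (0.179). The mean over both forms was lost only without untreated library 3 (0.31, adjusted p = 0.0997) among the 9 libraries left out in turn. The log2 fold change lay between 0.30 and 0.48 in all these fits. DESeq2 on all 18 libraries gave adjusted p = 0.00613 for FSH21 and 0.0119 for FSH24. With no filter on low counts more genes shared the adjustment, and the adjusted p became 0.119 with FSH21, 0.156 with FSH24 and 0.0594 with the mean of both forms.

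At 1 ng/ml the Amhr2 values overlapped the untreated ones. The untreated libraries numbered 1, 5 and 6 read 248.2, 323.7 and 244.6 CPM. FSH21 at 1 ng/ml gave 296.7, 337.7 and 283.5 CPM, and FSH24 at 1 ng/ml gave 263.6, 324.1 and 262.7 CPM. Library 5 was the highest in each of these groups, and all 3 ranges overlapped. The log2 fold change was 0.17 with FSH21 (95% interval -0.08 to 0.42, adjusted p = 0.876 by edgeR), 0.06 with FSH24 (-0.19 to 0.31, adjusted p = 0.961) and 0.11 with their mean (-0.10 to 0.33, adjusted p = 0.953). Of all genes, 0.128% were called with FSH21, 0% with FSH24 and 0% with the mean of both forms. Beside these zeros from edgeR, an unadjusted p under 0.05 was found for 1119 genes with FSH24 and 1046 with the mean, and DESeq2 called 1 and 19 genes. The 1119 and 1046 lie little above a share of 0.05 of the 18727 genes, which evenly spread p-values would give with no difference.

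The difference between the doses was tested as the change in the effect of each form. For Amhr2 the effect at 10 ng/ml exceeded that at 1 ng/ml by 0.26 on the log2 scale with FSH21 (95% interval -0.09 to 0.60, adjusted p = 0.873 by edgeR) and by 0.35 with FSH24 (a ratio of 1.27, 0.997 to 1.62, adjusted p = 0.342). Neither passed in this fit, which did not take the library number as a block. With that block the FSH24 difference passed, but the labels do not say what the numbers mark. For Amh the differences without a block were 0.05 (-0.49 to 0.59) and 0.13 (-0.41 to 0.67). Such a difference was called for 0.272% of genes with FSH21 and 2.45% with FSH24. Whether Amhr2 responded more than Amh was not tested.

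No difference between the glycoforms passed the test for either gene. At 10 ng/ml FSH21 minus FSH24 was 0.02 for Amhr2 (95% interval -0.23 to 0.27, adjusted p = 1 by edgeR) and 0.13 for Amh (-0.25 to 0.51, adjusted p = 1). At 1 ng/ml it was 0.11 for Amhr2 (-0.14 to 0.36, adjusted p = 0.824) and 0.21 for Amh (-0.17 to 0.59, adjusted p = 0.769). A difference of up to 1.20-fold at 10 ng/ml is therefore within the interval for Amhr2. Between the forms 0.0107% of genes were called at 1 ng/ml. At 10 ng/ml 0% were called by edgeR, with 410 genes at an unadjusted p under 0.05 and 5 called by DESeq2. The 410 genes are fewer than a share of 0.05 of the 18727 genes, which evenly spread p-values would give with no difference.

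No difference between the 2 sets of untreated libraries passed the test for either gene. The untreated libraries numbered 2, 3 and 4 minus those numbered 1, 5 and 6 gave a log2 difference of 0.06 for Amh (95% interval -0.32 to 0.44, adjusted p = 0.99 by edgeR) and -0.05 for Amhr2 (-0.30 to 0.19, adjusted p = 0.982). Here 0% of genes were called by edgeR, 1020 had an unadjusted p under 0.05 and DESeq2 called 1. The 1020 lie little above a share of 0.05 of the 18727 genes, which evenly spread p-values would give with no difference. The group means of Amhr2 ran from FSH21 at 10 ng/ml (352 ± 26.9 CPM) and FSH24 at 10 ng/ml (347 ± 31.1) over FSH21 at 1 ng/ml (306 ± 28.2), FSH24 at 1 ng/ml (283 ± 35.2) and untreated 1, 5 and 6 (272 ± 44.7) down to untreated 2, 3 and 4 (262 ± 27.2; SD, n = 3 each). Each group overlapped its neighbour in this order.

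**Figure D2:**
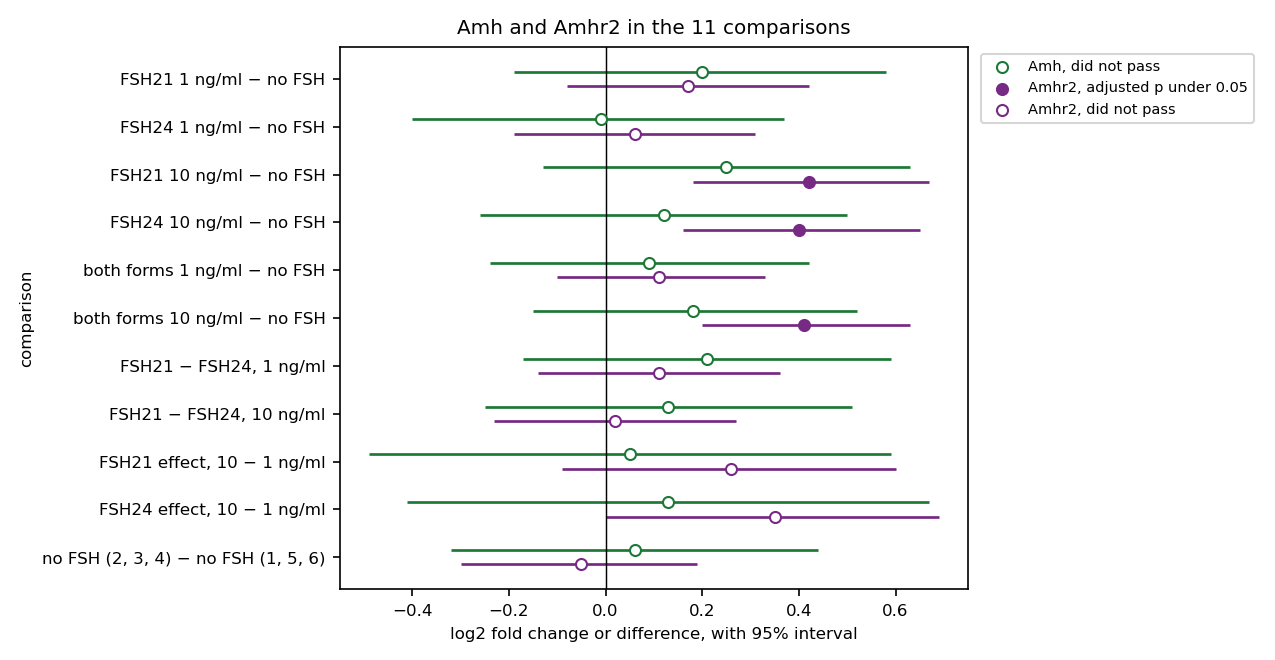
Log2 fold changes and differences of Amh (green) and Amhr2 (purple) in the 11 comparisons, with 95% intervals; filled points passed an adjusted p of 0.05 in edgeR's quasi-likelihood test. Only Amhr2 with 10 ng/ml FSH passed, at 0.42 with FSH21, 0.40 with FSH24 and 0.41 with the mean of both forms.

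Some markers of other cells also differed between the groups in which Amhr2 rose. The summed level of 6 surface epithelium genes was 37.6 to 51.6 CPM in the untreated libraries numbered 2, 3 and 4, 82.8 to 84.9 CPM with FSH21 and 76.2 to 88.5 CPM with FSH24 at 10 ng/ml. None of the 6 was at 0 in a whole group, Msln did not pass the filter, and the keratin gene Krt8 (log2 fold change 0.97 and 0.91) and the galectin gene Lgals7 (1.41 and 1.48) were called with both forms. Krt18, Krt19 and Upk3b were tested but not called with either form. The log2 fold changes of Upk3b with FSH21 and of Krt19 with FSH24 were negative. The summed level therefore does not stand for a rise of every gene on this list. At 1 ng/ml, where Amhr2 did not pass, this sum was 59.9 to 65.7 CPM with FSH21 and 47.4 to 76.9 CPM with FSH24. In the untreated libraries numbered 1, 5 and 6 it was 39.6 to 48.7 CPM. The Lgals7 calls were lost without untreated library 3 or 4, treated 2 and, with FSH21, treated 4, with adjusted p up to 0.13 and 0.119, and that with FSH24 also with only the groups compared (0.0561). The 12 oocyte genes summed to 4210 to 4890 CPM in untreated libraries 1, 5 and 6 and to 5090 to 5330 CPM in untreated 2, 3 and 4. With 10 ng/ml they summed to 4470 to 5000 CPM for FSH21 and 4430 to 4780 CPM for FSH24, with none called. The 12 granulosa genes overlapped, at 6810 to 8060 CPM untreated, 7620 to 8760 CPM with FSH21 and 7210 to 8340 CPM with FSH24. Of them Foxl2, Kitl (the gene of KIT ligand, 1.64 and 1.53) and, with FSH21, Inhbb (an activin and inhibin subunit, 1.97) rose and Esr2 and Fst fell. Beside the marker lists, 10.2% of all genes were called with FSH21 and 8.42% with FSH24 at 10 ng/ml. The Inhbb call was lost without untreated library 2 (0.0592), 3 (0.116) or 4 (0.0992) or treated 3 (0.0766) or 4 (0.102), and without the low-count filter (0.0569). Among the 7 theca and steroidogenic genes Cyp17a1, which encodes a steroid hydroxylase, rose (2.22 and 2.12), and the summed level overlapped, at 1190 to 1560 CPM untreated, 1340 to 2140 CPM with FSH21 and 1380 to 2060 CPM with FSH24. No stroma, endothelial or immune gene was called with either form. The part of these shifts in the Amhr2 result was not tested.

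The neighbouring genes gave a local comparison. Sf3a2 had a mean of 125 CPM and log2 fold changes of -0.20 with FSH21 and -0.17 with FSH24 at 10 ng/ml (adjusted p = 0.0562 and 0.126 by edgeR). Sp1, at 189 CPM, gave -0.01 and 0.04 (adjusted p = 0.958 and 0.817). Jsrp1, at 14.3 CPM, gave 0.36 and 0.06 (adjusted p = 0.414 and 0.937). None of the 3 passed the test with either form alone. With the mean of both forms at 10 ng/ml Sf3a2 was called, at -0.18 (SE 0.06, adjusted p = 0.0335 by edgeR). Sp1 (0.01) and Jsrp1 (0.21) did not pass there.

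The rest of the AMH pathway was read from 9 lists that hold 48 genes, all of them tested. At 10 ng/ml FSH21 raised 7 and lowered 6 of the 48 genes, which is 27.1% beside the 10.2% of all genes, with a median log2 fold change of -0.08 against 0 over all genes. FSH24 raised 5 and lowered 3, which is 16.7% beside 8.42%, with a median of -0.06 against 0. The lists include genes known to respond to FSH, and all were chosen with earlier results of these data known. The shares therefore describe these lists and are no test of the pathway. Leaving out each library in turn gave 9 to 12 called genes for FSH21 and 6 to 9 for FSH24. At 1 ng/ml FSH21 raised 1 of the 48 genes, which is 2.08% beside 0.128% of all genes. FSH24 called none at that dose, beside 0% of all genes. The treated groups at one dose share their untreated libraries, so their values are given side by side and not as repeats of each other.

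Among the enzymes that can cut AMH precursor, Pcsk6 rose and the others did not pass. Beside them 10.2% of all genes were called with FSH21 and 8.42% with FSH24 at 10 ng/ml, and 0.128% with FSH21 at 1 ng/ml. The proprotein convertase gene Pcsk6 rose by 0.93 on the log2 scale with FSH21 (SE 0.10, adjusted p = 1.21e-05 by edgeR) and by 0.87 with FSH24 (SE 0.10, adjusted p = 4.04e-05) at 10 ng/ml. It was also the gene that rose with FSH21 at 1 ng/ml (0.57, SE 0.10, adjusted p = 0.0401). That low-dose call was lost without any 1 of the untreated libraries 1 or 6 or the treated 1, 5 or 6 (adjusted p = 0.166, 0.267, 0.123, 0.223 and 0.0735), and with only the groups compared in the fit (0.201). Furin had values of -0.20 and -0.15 with FSH21 and FSH24 at 10 ng/ml, Pcsk5 -0.14 and 0.04, and Pcsk7 0.06 and 0.14. Their adjusted p-values were 0.0967 or more.

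Of the 3 type I receptors that can partner AMHR2, Bmpr1b (ALK6) fell, beside 10.2% of all genes called with FSH21 and 8.42% with FSH24. Its log2 fold change was -0.44 with FSH21 (SE 0.07, adjusted p = 0.000486 by edgeR) and -0.29 with FSH24 (SE 0.07, adjusted p = 0.014) at 10 ng/ml. The FSH24 call was lost without treated library 3 (adjusted p = 0.0695) or 4 (0.0501). Acvr1 (ALK2) gave -0.06 and -0.08, and Bmpr1a (ALK3) gave 0.04 and 0.10, none past the test. Related type II receptors of the BMPs and activins were measured beside Amhr2. Bmpr2 fell with FSH21 (-0.40, SE 0.11, adjusted p = 0.0296), a call lost without untreated library 3 (-0.27, 0.135) or 4 (0.0671) or treated 2 (0.104), without the low-count filter (0.0509) and with only the groups compared (0.128), and Acvr2b fell with FSH21 (-0.62, SE 0.15, adjusted p = 0.00964). With FSH24 they gave -0.34 and -0.33 and did not pass (adjusted p = 0.0822 and 0.202). Acvr2a gave -0.03 and 0.04 and Tgfbr2 -0.17 and -0.13. So Amhr2 rose with FSH21 while 2 of the 4 related type II receptors on the list fell, beside 10.2% of all genes called with FSH21.

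Of the 4 SMADs that carry the signal, 1 passed the test with FSH21 and none with FSH24, beside 10.2% and 8.42% of all genes. Smad1, which AMHR2 signalling activates, rose with FSH21 (0.42, SE 0.10, adjusted p = 0.0112 by edgeR), and the call was lost without untreated library 2 (0.0743) or 3 (0.0539) or treated 4 (0.0836). With only the groups compared in the fit the adjusted p was 0.0509. With FSH24 it was 0.31 and did not pass (adjusted p = 0.0694), and without untreated library 4 it passed (0.0282). Smad5 gave 0.09 and 0.12, and the shared partner Smad4 -0.10 and -0.07. Smad9 gave -0.58 and -0.56 and did not pass (adjusted p = 0.0993 and 0.121), but it was called against all 6 untreated libraries, at -0.62 and -0.60 (adjusted p = 0.0261 and 0.0363). None of the inhibitors passed, with Smad6 at -0.10 and -0.06, Smad7 at 0.31 and 0.24, and the pseudoreceptor Bambi at -0.29 and -0.27. None of the 4 ID genes passed, at 0.19 and 0.04 for Id1, -0.23 and -0.22 for Id2, 0.17 and 0.03 for Id3, and -0.01 and -0.09 for Id4. The sign of Id1 and Id3 with FSH24 and of Id4 with both forms changed when single libraries were left out, so no direction is given for them.

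**Figure D3:**
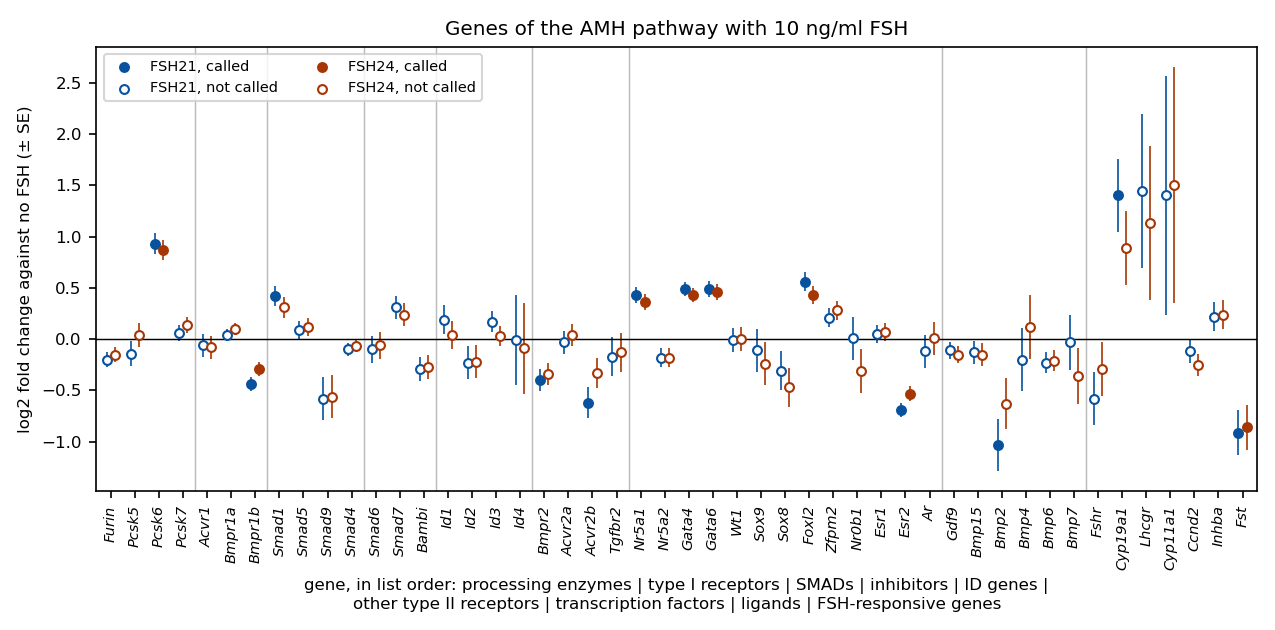
Log2 fold change ± SE of the 48 genes of the AMH pathway lists with FSH21 (blue) and FSH24 (red-brown) at 10 ng/ml against the untreated libraries numbered 2, 3 and 4; filled points were called at an adjusted p under 0.05, and grey lines part the lists. Pcsk6, Nr5a1, Gata4, Gata6 and Foxl2 lie above 0 and Bmpr1b, Esr2 and Fst below 0 with both forms, and none of the 4 ID genes was called.

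Of 13 transcription factors known at the Amh gene, 4 rose and 1 fell with each form at 10 ng/ml. Beside them 10.2% of all genes were called with FSH21 and 8.42% with FSH24, and the list was chosen with earlier results known. Gata4 rose by 0.49 on the log2 scale with FSH21 and 0.43 with FSH24 (SE 0.07 each, adjusted p = 7.08e-05 and 0.000359 by edgeR), and Gata6, its close relative, by 0.49 and 0.46 (SE 0.08 each, adjusted p = 0.000427 and 0.00114). Nr5a1, the nuclear receptor SF-1, rose by 0.43 and 0.36 (SE 0.08 each, adjusted p = 0.00236 and 0.0115). Foxl2, which keeps granulosa cells in their identity, rose by 0.56 and 0.43 (SE 0.09 each, adjusted p = 0.000636 and 0.00653). Esr2, the estrogen receptor of granulosa cells, fell by 0.69 and 0.53 on the log2 scale (SE 0.07 each, adjusted p = 5.74e-06 and 0.000131). With FSH24 the Nr5a1 call was lost without untreated library 3 (0.0869) or treated 2 (0.0514) or 3 (0.051), and that of Foxl2 without untreated library 3 (0.0515). Antisense genes Nr5a1os and Foxl2os overlap Nr5a1 and Foxl2, and without a stated strand their reads cannot be told apart. Amh itself did not pass in the same libraries.

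Ligands that raise Amh in granulosa cells were followed as well. The oocyte factors Gdf9 (-0.11 and -0.15) and Bmp15 (-0.13 and -0.15) did not pass with FSH21 or FSH24 at 10 ng/ml. Bmp2 fell with FSH21 (-1.03, SE 0.25, adjusted p = 0.0159 by edgeR) and was -0.63 with FSH24 (adjusted p = 0.146). The Bmp2 call was lost without untreated library 3 (-0.78, 0.0703) or treated 4 (-0.91, 0.0806).

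The FSH receptor gene and FSH-responsive genes, some of which AMH is known to restrain, gave a mixed picture. The FSH receptor gene Fshr had log2 fold changes of -0.58 and -0.29 (adjusted p = 0.198 and 0.614 by edgeR). Aromatase, Cyp19a1, rose with FSH21 (1.40, SE 0.36, adjusted p = 0.0239) and was 0.89 with FSH24 (adjusted p = 0.17). The Cyp19a1 call was lost without untreated library 2 (0.0503) or 3 (0.0973) or treated 3 (0.0718) or 4 (0.0874), and without the low-count filter (0.071). Fst, which encodes the activin-binding protein follistatin, fell with FSH21 (-0.91, SE 0.22, adjusted p = 0.0185) and FSH24 (-0.86, SE 0.22, adjusted p = 0.0288). The Fst calls were lost without untreated library 2 (0.0579 and 0.0889), without treated 2 (0.0766 and 0.114) and, with FSH24, without untreated 4 (0.0692) or treated 4 (0.115), without the low-count filter (0.0666) and with only the groups compared (0.0924). Lhcgr, the receptor of luteinising hormone, gave 1.44 and 1.13 with wide errors (SE 0.75 each) and did not pass. Cyp11a1, Ccnd2 and Inhba, also on this list, were not called with either form.

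Amh and Amhr2 went together across the 18 libraries. On the log2 CPM scale Pearson's r was 0.66 and Spearman's rho 0.61 (permutation p = 0.00309 and 0.00906, adjusted over 3 relations to 0.00927 and 0.0272). Without the 2 libraries farthest from the median of Amh, FSH24 at 1 ng/ml number 6 and untreated number 3, r was 0.56 over 16 libraries. It was 0.57 after each group's mean was subtracted, 0.77 over the 9 libraries numbered 1, 5 and 6 and 0.53 over the 9 numbered 2, 3 and 4. The libraries share groups, numbers and the scaling, so they are not independent points, and the p-values take them as such.

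No relation with the FSH receptor gene passed over all libraries. Amh with Fshr gave r = 0.13 and rho = 0.05 (permutation p = 0.614 and 0.831, adjusted 0.614 and 0.831), r = 0.04 without the 2 libraries farthest from the median, and r = 0.58 after each group's mean was subtracted. Amhr2 with Fshr gave r = -0.23 and rho = -0.25 (permutation p = 0.354 and 0.324, adjusted 0.531 and 0.486), r = 0.02 without 2 libraries, and r = 0.36 after subtraction of the group means, a change of sign. The number sets gave opposite signs for both relations: 0.88 for Amh and 0.80 for Amhr2 over numbers 1, 5 and 6, and -0.43 and -0.76 over numbers 2, 3 and 4.

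**Figure D4:**
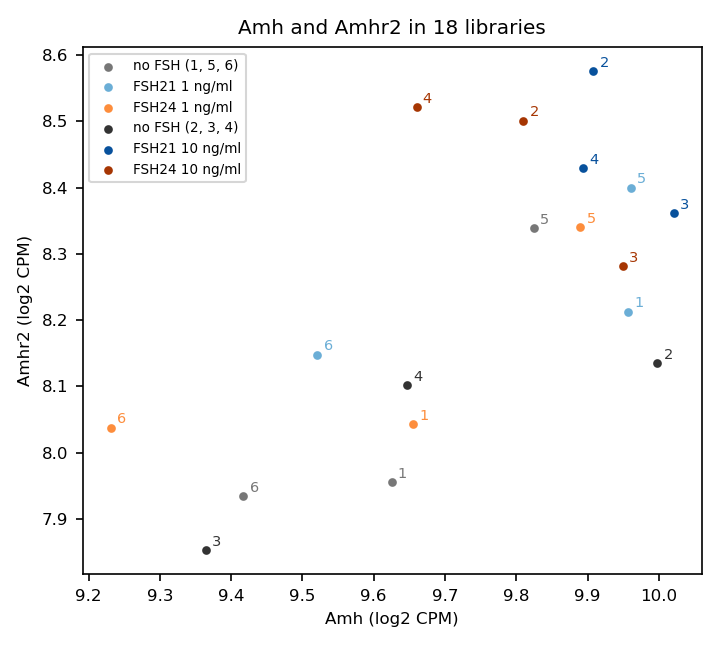
Amhr2 against Amh in log2 CPM, each point a library, coloured by group and marked with its number. The values rise together over the 18 libraries (r = 0.66), with untreated library 3 at the lowest Amhr2 level, 231 CPM. The 10 ng/ml libraries (blue and red-brown, dark) lie in the upper part and spread from 9.66 to 10.021 on the Amh axis.

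The genes most like each member were taken as the 5 with the highest Pearson's r of log2 CPM, given as a description. For Amhr2 over the 18 libraries they were Tapbp (0.959), Cntn4 (0.935), Tnni3 (0.933), Llgl1 (0.928) and Sema4a (0.924). After subtraction of the group means they were Rgl1 (0.938), Atpaf2 (0.929), Llgl1 (0.928), Slc27a6 (0.927) and Fam102a (0.925), so Llgl1 was on both lists. For Amh over the 18 libraries they were Gm16958 (0.863), Lrrc8d (0.848), Slc3a2 (0.846), Rap2b (0.825) and Sgms1 (0.803). After subtraction they were Snx18 (0.921), Eya2 (0.908), Gm16958 (0.897), Tox2 (0.89) and Bok (0.884). Gm16958 was on both lists for Amh but had a mean of only 0.342 CPM. Over the 18 libraries 16 genes had an r above 0.9 with Amhr2 and 0 had one with Amh.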

How the data were processed

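Polyadenylated RNA of 18 libraries, each deposited as 4 lanes, was analysed from 1 table of expected counts per gene, which the authors deposited with the lanes merged; per the file headers these are RSEM values. Tools listed in the submitters' processing notes are STAR 2.7, FastQC and bcl2fastq, with the build mm10. The RSEM version, annotation and strand setting are not given in the sources used here. A fractional part was present in 33.9% of values above 0, and counts were rounded. Groups and numbers came from the labels and column names. The variance of replicate pairs was 9.34 to 25.3 times that of Poisson counts.

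The main test was edgeR 4.0.16 (R 4.3.3): TMM, filterByExpr (minimum count 10), robust quasi-likelihood fit on all libraries in 6 groups with no block, Benjamini-Hochberg adjustment over 18727 genes, called under 0.05. Intervals (95%) used the standard error and the fit's t quantile. Correlations used log2 CPM (prior count 2) with 100000 resamples. Alternatives were DESeq2 1.42.0, other scaling, no filter, fewer groups, a block, all untreated libraries, and each library left out. The test was checked on simulated data.

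The members and gene lists were chosen with earlier results of these data known. Named genes were the members, list genes called (up to 4 per list and comparison), type I receptors, SMADs and ID genes, the nearest genes, and the 5 most alike; other uncalled list genes, and Nr5a1 with FSH21 and FSH24 as the smallest of its list's called changes, were added after their values were seen. The promoter came from RefSeq (GRCm38.p6, 1 of 2 genes matched); positions came from GENCODE M21.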

Additional observations from a re-analysis of the deposited data

Results flagged for a closer look

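The effect of 10 ng/ml differed from that of 1 ng/ml, by edgeR's test of the difference itself, in 6 genes of the AMH pathway and cell-type marker lists and in neither Amh nor Amhr2. Kitl, the gene of KIT ligand, showed it with both forms: the effect at 10 ng/ml exceeded that at 1 ng/ml by 1.05 on the log2 scale with FSH21 (SE 0.11, adjusted p = 0.000165) and by 1.5 with FSH24 (SE 0.11, adjusted p = 1.23e-06). Esr2 also showed it with both, at -0.62 with FSH21 (SE 0.10, adjusted p = 0.0124) and -0.48 with FSH24 (SE 0.10, adjusted p = 0.0152). With FSH24 the other differences were 0.75 for Pcsk6 (SE 0.15, adjusted p = 0.00975), 0.77 for Krt8 (SE 0.17, adjusted p = 0.0265), 0.47 for Gata6 (SE 0.11, adjusted p = 0.0327) and 0.37 for Gata4 (SE 0.09, adjusted p = 0.0409). The calls of Kitl, Esr2 and Pcsk6 were kept in all 18 alternatives, whereas Gata4 lost its call in 13 (adjusted p up to 0.154, without treated library 4 of the high dose), Gata6 in 9 (up to 0.131, without untreated library 5) and Krt8 in 8 (up to 0.0991, without untreated library 5). Kitl and Krt8 come from the marker lists alone. Of the 48 pathway genes 2.08% were called with FSH21 and 8.33% with FSH24, beside 0.272% and 2.45% of all genes. The doses also differ in their library numbers, and each effect was taken against the untreated libraries of its own numbers.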

How the results depend on the processing

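Outside the fits that left out a library, Amh kept its sign and its side of the threshold in all 71 alternatives. Amhr2 did so in 67, lost its call in 3 and gained one in 1. Without the low-count filter the 10 ng/ml log2 fold changes of Amhr2 were 0.41 with FSH21, 0.40 with FSH24 and 0.41 with their mean, none called. Libraries of one number correlated by 0.05 to 0.235 in 18 pairs (median of different numbers -0.018). All of these values lay above that median. The labels do not say what a number marks, so the main test did not take it as a block. With the replicate block Amhr2 had adjusted p = 2.44e-05 with FSH21 and 5.82e-05 with FSH24 at 10 ng/ml by edgeR, and its FSH24 difference between doses passed (0.34, adjusted p = 0.0118). The block also called Smad1 with FSH24 (adjusted p = 0.00774) and Smad9 with FSH21 (0.0149) and FSH24 (0.0226) at 10 ng/ml. In each of the 4 treated groups Amhr2 was higher than the untreated library of the same number in 3 of 3 libraries.

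Leaving out each library in turn gave these ranges of the log2 value. For Amhr2 at 10 ng/ml they were 0.33 to 0.46 with FSH21 (called in 2 of 6 fits), 0.30 to 0.48 with FSH24 (1 of 6) and 0.31 to 0.45 with the mean (8 of 9). Signs changed for Amhr2 with FSH24 at 1 ng/ml (-0.05 to 0.20), FSH21 minus FSH24 at 10 ng/ml (-0.05 to 0.07) and the untreated sets (-0.12 to 0.09). For Amh they changed with FSH24 at 1 ng/ml (-0.17 to 0.14) and 10 ng/ml (-0.04 to 0.29), the mean at 1 ng/ml (-0.01 to 0.19), the dose difference of FSH21 (-0.10 to 0.23) and FSH24 (-0.03 to 0.30), and the untreated sets (-0.12 to 0.21). With FSH21 at 10 ng/ml signs changed for Acvr1 (-0.18 to 0.02), Bmpr1a (-0.01 to 0.07), Smad5 (-0.02 to 0.13) and Id4 (-0.38 to 0.50), and with FSH24 for Id1 (-0.05 to 0.10), Id3 (-0.04 to 0.08) and Id4 (-0.46 to 0.42). Against all 6 untreated libraries Id1 became -0.06 and Id3 -0.02 with FSH24. The cause was not tested.

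Genes called with FSH21 at 10 ng/ml numbered 1906, 1250 to 1630 without a library and 1648 to 2898 otherwise; with FSH24 1577, 982 to 1439 and 1130 to 2547; with the mean 2473, 1513 to 2326 and 2082 to 3815. With FSH21 at 1 ng/ml they numbered 24, 0 to 21 and 1 to 226. Between the forms at 1 ng/ml they numbered 2, 0 to 7 and 0 to 177. The dose difference gave 51 genes for FSH21, 20 to 66 and 49 to 229, and 458 for FSH24, 217 to 517 and 317 to 1180. The mean at 1 ng/ml gave 0, up to 1 and up to 24. Counts of pathway genes under the alternatives were added after the data were seen: against 13 with FSH21 and 8 with FSH24 at 10 ng/ml, the block gave 20 and 17 and all 6 untreated libraries 16 and 13.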
